A study of Mus with 15 samples.

Results

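The 6 Dlx genes and the 2 Gsx genes encode homeodomain transcription factors of the GABAergic lineage of the forebrain and of the embryonic ectoderm, and the domains of ubiquitinated histone H2A over these 8 genes in the adult mouse thalamus are described here. The genes were chosen by name, with earlier results of these data known. Their peaks were all peaks that overlapped the gene body with 5 kb on each side, and because Dlx genes lie in pairs, the pairs Dlx1-Dlx2, Dlx3-Dlx4 and Dlx5-Dlx6 were also treated as single intervals beside Gsx1 and Gsx2. The resulting 5 loci, 118 kb in all, held 292 peaks over 11 libraries, and the 8 genes were set beside the 21887 protein-coding genes of the annotation.

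Histone H2A with a single ubiquitin (H2AK119ub1, hereafter H2Aub) was measured by ChIPmentation, an immunoprecipitation in which Tn5 transposase adds the sequencing adapters to chromatin still held on the beads. Thalami came from mice aged 2 to 4 months that received saline for 3 days and then either cocaine at 20 mg/kg or saline for 5 days. WT mice carried the Maged1 Loxp allele without Cre, and Maged1-cKO mice (cKO) carried a deletion driven by vGluT2-Cre, so that cells of the thalamus without this Cre kept Maged1. The libraries numbered 3 each for WT cocaine, WT saline and cKO saline and 2 for cKO cocaine, each made from a pool of animals that the labels give as 3-4 and the methods of the study as 2-4. The spread between libraries is therefore a spread between pools. The whole tissue was used, so that a mark on fewer cells and less mark per cell cannot be told apart, and because peak lists hold no expression, neither the tissue nor the deletion could be checked against marker genes.

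H2Aub is deposited by the Polycomb repressive complex PRC1, and in differentiated cells it covers the genes of developmental regulators that the cell type does not use. In the embryo, Gsx1 and Gsx2 specify progenitors of the ventral telencephalon, and Dlx1, Dlx2, Dlx5 and Dlx6 act downstream of them as progenitors become GABAergic neurons. Dlx3 and Dlx4 are better known from placenta, skin, teeth and other ectodermal derivatives. The genes of a Dlx pair point towards each other and share enhancers in the sequence between them. Most neurons of the thalamus are glutamatergic, and its GABAergic cells are a minority in rodents outside the reticular nucleus.

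The 11 lists were very unequal. They held 7271 to 80713 peaks that covered 4.24 to 27.6 Mb, and although the methods set a lower limit on the reads per sample, the lists give no read number per library, so that no counting interval can be set. The libraries cKO cocaine 1 and cKO saline 1 stood apart, with 54653 and 80713 short peaks and a highest fold enrichment of 31.2 and 52.6, where the other 9 lists held at most 26055 peaks and reached 5.98 to 12.2. Those 2 libraries had the most peaks in the genome but covered only 58.7% and 55.8% of the 5 loci. Results of the main setting that rest on them are given with and without them.

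Every one of the 8 genes had an H2Aub peak in every library, which makes 88 of 88 combinations of gene and library. Without the 2 cKO libraries that stood apart, it was 72 of 72. Of all protein-coding genes, 66.1% had a peak in at least 1 list and 6.76% in all 11. H2Aub+ elements, defined as stretches under a peak in at least 2 libraries of a group, were found at all 8 genes in all 4 groups, 32 of 32 combinations, where 7.77% of all coding genes had one in all 4 groups. When a stretch had to be covered in all libraries of the group, it was again 32 of 32, against 3.52% of coding genes. Of the 292 peaks, 15 (5.14%) had a q value above 0.05, and the matching share over the whole lists was not counted.

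**Figure D1:**
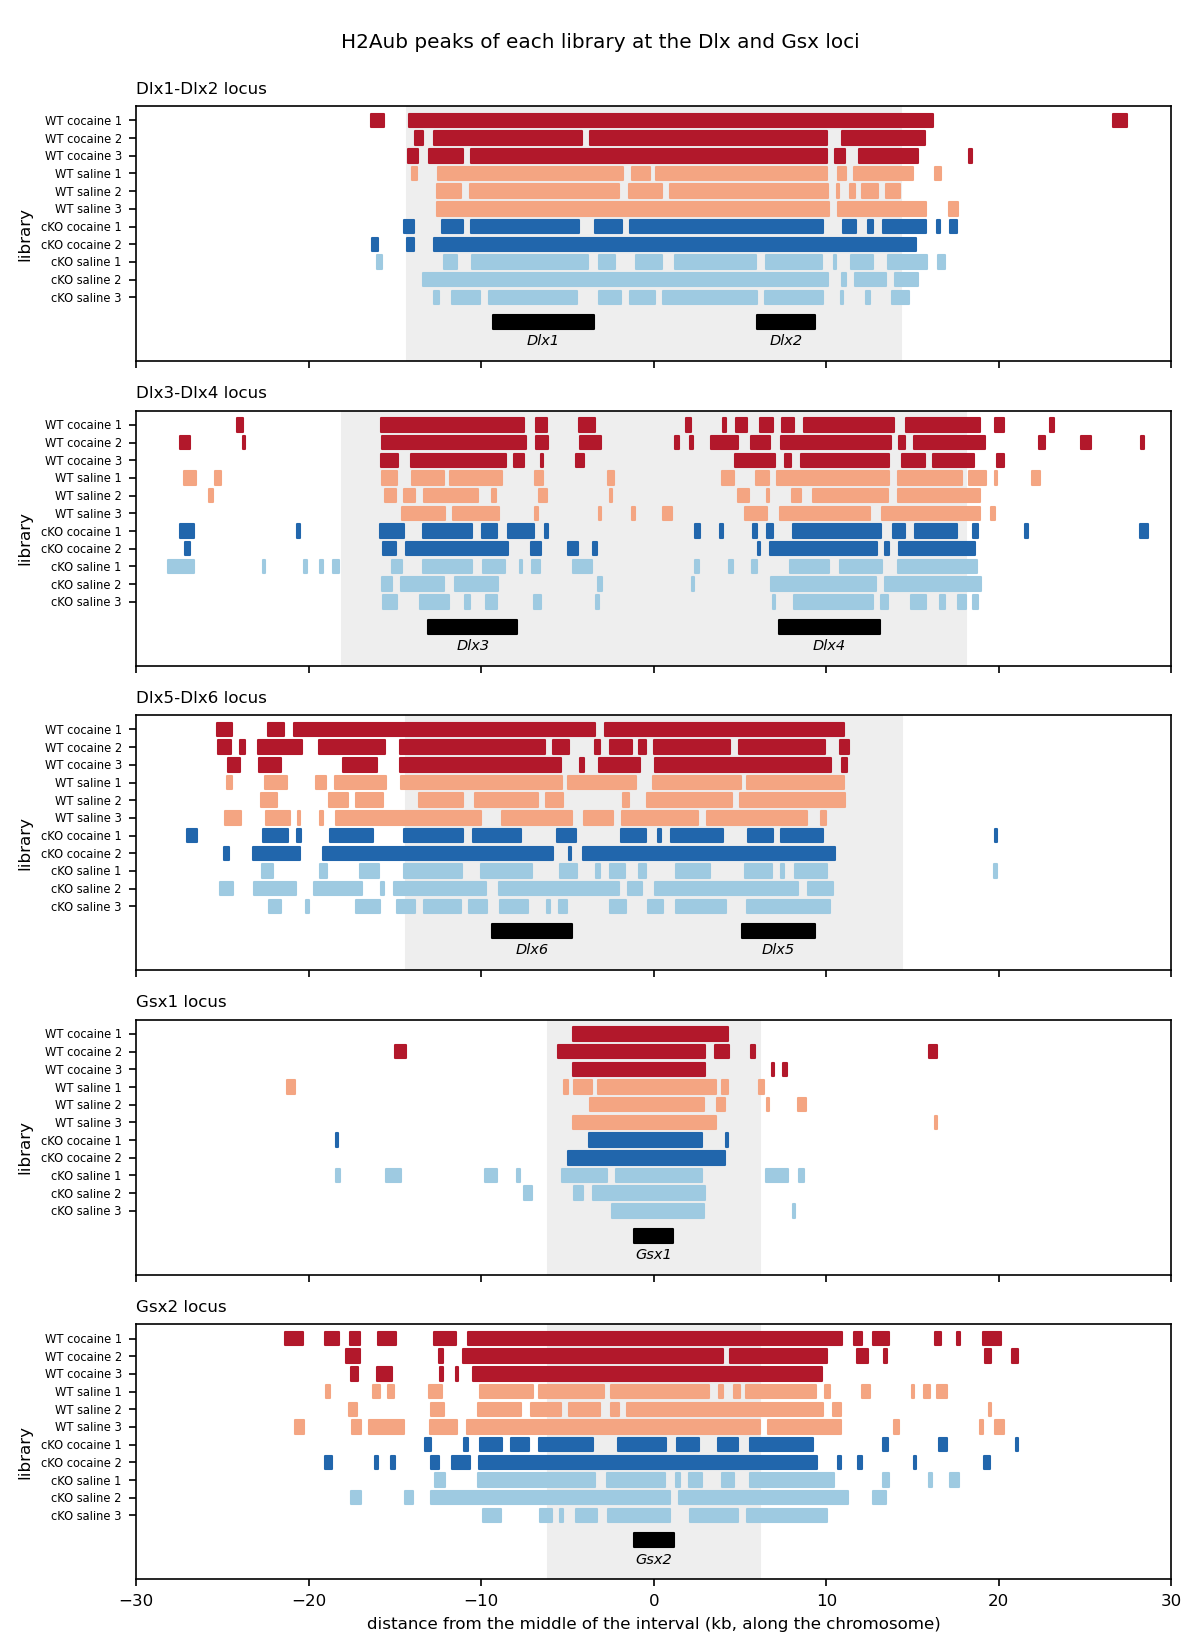
H2Aub peaks of the 11 libraries (rows, coloured by group) at the 5 loci, plotted as distance in kb from the middle of each interval. Grey marks the interval of gene bodies with 5 kb on each side and black bars the gene bodies. Domains at Dlx1-Dlx2 and Gsx2 run across most of the interval, whereas Dlx3-Dlx4 shows 2 domains with a thinly covered stretch between the genes.

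The Gsx2 locus lay at chr5:75070601-75082893 (mm10), with the gene body at chr5:75075601-75077893. Its covered share, the percentage of the interval's bases under a peak, was 100%, 96.2% and 100% in WT cocaine, 83.8%, 87.4% and 99.8% in WT saline, 67.8% and 100% in cKO cocaine, and 67.5%, 95.8% and 71.6% in cKO saline. In 3 of the 4 groups, a library at or near full coverage stood beside a lower one, and the groups overlapped in each of the 4 contrasts of the design. The domain went past the interval: the next 5 kb outwards were covered to 79.4% on the lower side and 79.6% on the upper side, as a mean over 11 libraries, and the widest single peak was 21.7 kb long in WT cocaine 1.

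Gsx1 lay at chr5:147183696-147195947, with its body at chr5:147188696-147190947, and had a compact domain. The gene body was covered to 100% in all 11 libraries, the only one of the 8 bodies of which this was true. The covered share of the interval was 73.5%, 78.1% and 62.6% in WT cocaine, 69.1%, 57.9% and 67.5% in WT saline, 54.7% and 74.1% in cKO cocaine, and 61.5%, 57.1% and 43.6% in cKO saline. The groups overlapped in all 4 contrasts. A single stretch of 4.97 kb, chr5:147187631-147192598, lay under a peak in all 11 libraries, and outside the interval the mark fell away: the next 5 kb held a mean of 2.36% on the lower and 5.33% on the upper side. A separate domain lay 25 to 35 kb above the interval, short of the next coding gene, with mean shares of 41.7% in its first and 17.0% in its second 5 kb and peaks in 10 of 11 libraries in each.

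The Dlx1-Dlx2 locus (chr2:71523113-71551754, with Dlx1 at chr2:71528113-71533981 and Dlx2 at chr2:71543408-71546754) carried the widest single peak of the 5 loci. That peak, 30.4 kb long, spanned almost the whole interval in WT cocaine 1, and the widest peak of the locus ranked between 2 and 49 by width in its own list in every library. The covered share was 99.5%, 91.4% and 91.3% in WT cocaine, 87.7%, 81.3% and 92.0% in WT saline, 78.9% and 95.8% in cKO cocaine, and 70.1%, 90.4% and 68.1% in cKO saline. The highest WT saline library lay above the lowest WT cocaine library, so these groups overlapped, as did those of the other 3 contrasts. In all, 55.8% of the interval was covered in all 11 libraries, the largest such share of the 5 loci, and its longest run, chr2:71527886-71532990 (5.11 kb), lay almost wholly in the body of Dlx1.

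Dlx5-Dlx6 (chr6:6858334-6887068, with Dlx6 at chr6:6863334-6867970 and Dlx5 at chr6:6877801-6882068) was covered to 86.4%, 72.1% and 77.2% in WT cocaine and to 82.4%, 64.2% and 71.6% in WT saline. In the cKO groups, the share was 54.2% and 80.9% under cocaine and 49.3%, 77.0% and 53.9% under saline, so that the groups overlapped in all 4 contrasts and the 3 lowest values were from cKO saline 3 and the 2 cKO libraries that stood apart. The domain was lopsided. Below Dlx6 it continued past the interval, with a mean share of 66.0% in the next 5 kb, 36.6% in the 5 kb beyond, both with peaks in 11 of 11 libraries, and 7.92% in the 5 kb after that. It stopped above Dlx5, where the flank inside the interval was covered to 21.2% and the next 5 kb held no peak in any library.

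Dlx3-Dlx4 (chr11:95115117-95151294, with Dlx3 at chr11:95120117-95125296 and Dlx4 at chr11:95140447-95146294) had the lowest covered share: 58.3%, 64.0% and 51.9% in WT cocaine, 50.2%, 41.0% and 48.2% in WT saline, 44.7% and 51.2% in cKO cocaine, and 43.7%, 46.1% and 30.2% in cKO saline. It was the 1 locus of 5 whose WT cocaine libraries all lay above the WT saline libraries, by as little as 51.9% against 50.2%, and above both cKO cocaine libraries, by as little as 51.9% against 51.2%. Among coding genes with a peak in all 11 lists, 33.3% were separated in the former way and 12.8% in the latter, so 1 of 5 does not stand out from the background. The widest peak was 4.54 to 8.32 kb long, and 21.0% of the interval was under no peak in any library.

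Within the loci, the gene bodies were covered over most of their length in the mean, though the lowest library had 42.5% of the Dlx3 body and 49.3% of the Dlx6 body. Beside Gsx1, the means over 11 libraries were 95.8% ± 6.45 (SD) for the body of Dlx1, 97.3% ± 5.97 for Dlx2, 91.6% ± 10.4 for Dlx5, 78.9% ± 16.1 for Dlx6, 94.4% ± 8.55 for Gsx2, 76.8% ± 17.5 for Dlx3 and 87.9% ± 8.80 for Dlx4. The sequence between paired genes differed far more. It was covered to 94.2% ± 7.93 between Dlx1 and Dlx2 and to 70.8% ± 20.8 between Dlx6 and Dlx5, but to 16.2% ± 9.20 between Dlx3 and Dlx4. The highest library between Dlx3 and Dlx4, at 36.8%, lay below the lowest of the other two pairs, at 75.9% and 37.4%. At 15.2 kb this stretch was also the longest of the 3, against 9.43 kb and 9.83 kb.

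**Figure D2:**
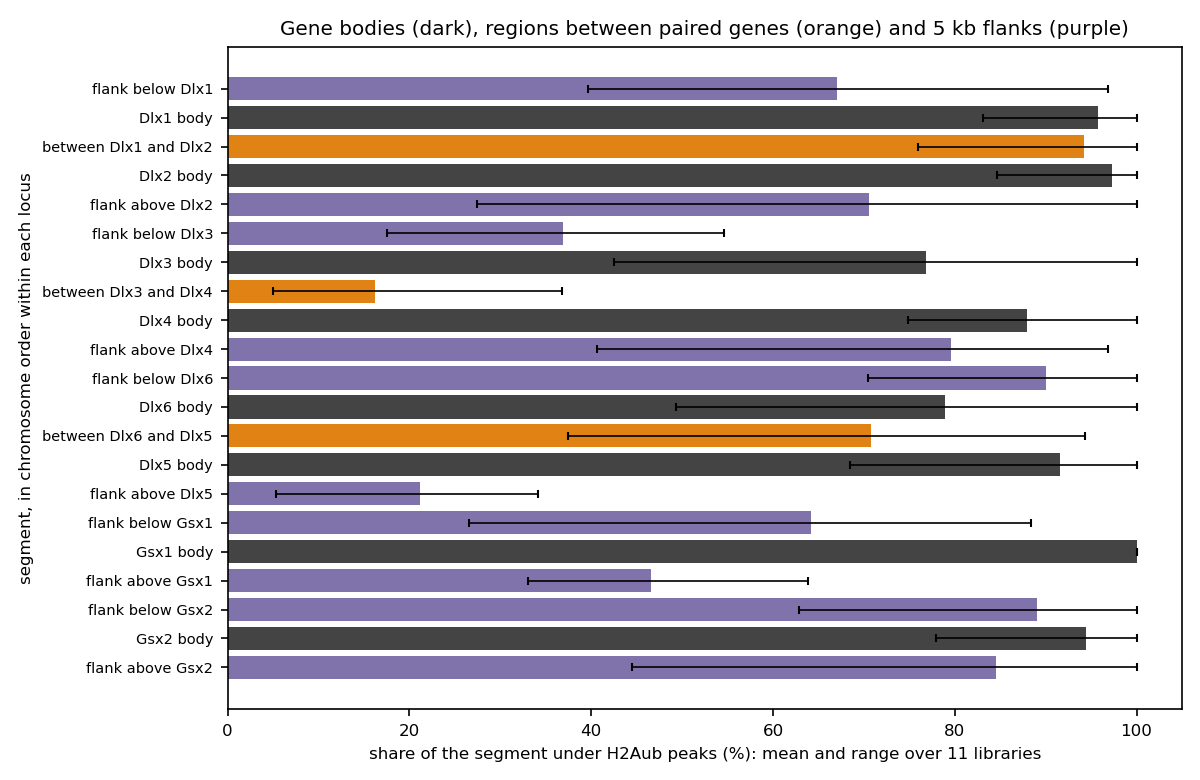
Share of each segment under H2Aub peaks in percent, as the mean (bar) and range (line) over 11 libraries, with gene bodies dark, regions between paired genes orange and flanks of 5 kb purple. The Gsx1 body is at 100% in every library, and the region between Dlx3 and Dlx4, at 16.2%, is the least covered segment.

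In order of mean covered share over 11 libraries, the loci were Gsx2 (88.2% ± 13.5), Dlx1-Dlx2 (86.0% ± 10.2), Dlx5-Dlx6 (69.9% ± 12.7), Gsx1 (63.6% ± 10.1) and Dlx3-Dlx4 (48.1% ± 8.89). Because the order was set from these values, the steps between neighbours are given as differences within libraries, with no p value. Dlx1-Dlx2 lay above Dlx5-Dlx6 by 16.1 ± 1.56 (SE) percentage points and in 11 of 11 libraries, with a range of 5.30 to 24.7 points, and Gsx1 above Dlx3-Dlx4 by 15.5 ± 1.23 points, also in 11 of 11, with a range of 10.1 to 22.8 points. The steps from Gsx2 to Dlx1-Dlx2 (2.14 ± 1.79 points, 8 of 11 libraries, range -11.1 to 8.66) and from Dlx5-Dlx6 to Gsx1 (6.32 ± 2.88 points, 8 of 11 libraries, range -12.2 to 20.0) differed in sign between libraries. Without the 2 cKO libraries that stood apart, these 2 steps were 4.14 and 9.14 points.

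The order depended on how much sequence around the genes was counted. With no flank, Gsx1 lay 22.4 points above Dlx5-Dlx6, the reverse of the order above. With 10 kb on each side, Gsx1 lay 3.11 points below Dlx3-Dlx4. Flank makes up a larger share of the interval of a short single gene such as Gsx1, with a body of 2.25 kb, than of a pair.

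**Figure D3:**
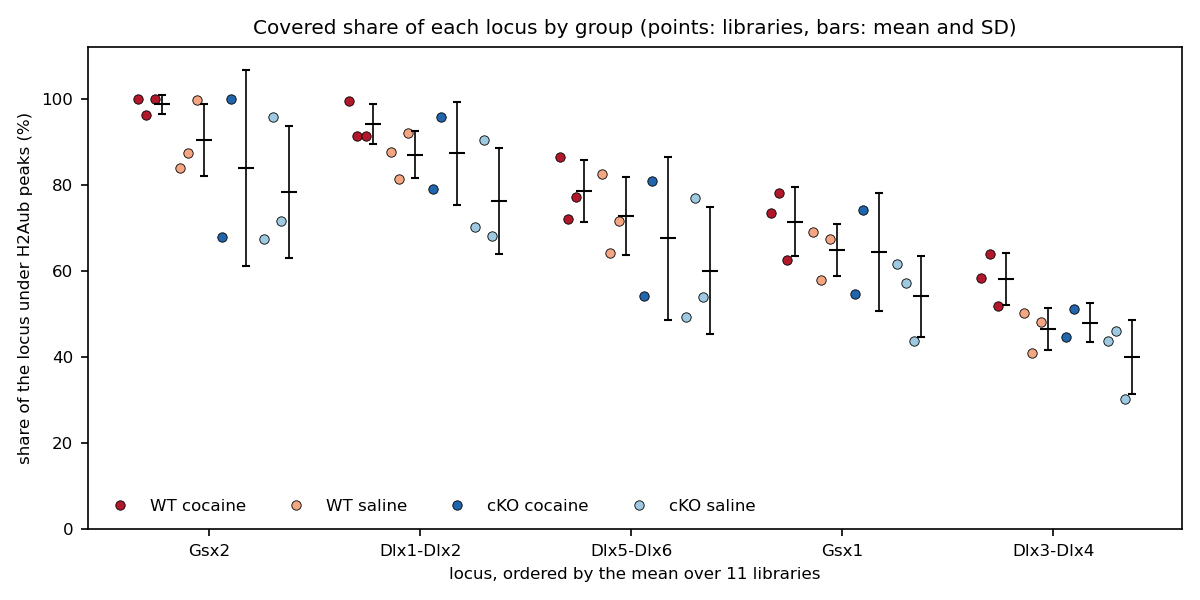
Share of each locus under H2Aub peaks in percent, for every library (points, coloured by group) with the group mean and SD (bars), loci ordered from the highest mean (Gsx2, 88.2%) to the lowest (Dlx3-Dlx4, 48.1%). The WT cocaine and WT saline libraries overlap at 4 of the 5 loci and lie close together at the other, Dlx3-Dlx4 (lowest 51.9% against highest 50.2%).

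By single genes, each with its own 5 kb flanks, the mean covered share was 88.2% for Gsx2, 88.1% for Dlx2, 84.6% for Dlx1, 75.2% for Dlx6, 65.2% for Dlx4, 64.7% for Dlx5, 63.6% for Gsx1 and 45.4% for Dlx3. Among the 21887 protein-coding genes these values held ranks 16 (Gsx2), 17 (Dlx2), 28 (Dlx1), 67 (Dlx6), 97 (Dlx4), 99 (Dlx5), 101 (Gsx1) and 161 (Dlx3). The median coding gene was covered to 0.0897%, and 144 coding genes, 0.658%, had a mean above 50%. All members but Dlx3 were among those 144. The share is divided by interval length, which differs between genes and was not matched in this ranking. Member bodies were 2.25 to 5.87 kb long. Paired genes share flanking and intervening sequence, so the values within a pair are not independent.

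The domains ended between the Dlx pairs and their neighbours. At Dlx1-Dlx2, Metap1d, a mitochondrial methionine aminopeptidase whose end reaches into the interval, was covered to a mean of 0.578% over the 69.8 kb outside it. The nearest coding genes wholly outside were Hat1, a histone acetyltransferase, at 0.0342% of its body, and the integrin gene Itga6 at 1.61%. Around Dlx3-Dlx4, the integrin gene Itga3 was covered to 0.941% and the tachykinin gene Tac4 to 0.566%. Around Dlx5-Dlx6, Sem1 had no peak in any library and Sdhaf3, an assembly factor of succinate dehydrogenase, was at 0.0147%.

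The Gsx genes each had 1 covered neighbour. Above Gsx1, at a distance of 74.2 kb, the body of Pdx1, a homeobox gene of the pancreas, was covered to 86.8% and in all 11 libraries, whereas Polr1d, a subunit shared by RNA polymerases I and III, had no peak on the other side. Above Gsx2, at 68.4 kb, the body of Pdgfra, a growth factor receptor of oligodendrocyte precursors, was covered to 15.8% (range 10.9% to 20.7%), and Chic2 on the other side to 0.569%.

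The other genes of the lineage were described through lists of known genes. Of 24 other transcription factors of GABAergic lineages, 22 had a peak in all 11 lists, and their median covered share was 42.5% against 70.2% for the 8 Dlx and Gsx genes. The highest were Sp9 (82.7%), a zinc finger factor of striatal and cortical interneuron precursors, Sox14 (82.1%), a factor of midbrain-derived thalamic interneurons, Lhx1 (77.8%) and Nkx2-1 (75.6%), which specifies the medial ganglionic eminence. The lowest were Ebf1 (1.53%) and Prox1 (2.09%), with a peak in 11 and 8 of the 11 libraries.

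Genes of the GABAergic phenotype were described in the same way, without a test between lists. The 6 genes of GABA synthesis and transport had a median share of 3.92%, with a peak in all 11 lists at 3 of them: Slc32a1, the vesicular GABA transporter, at 49.0%, Gad1 at 19.1% and Gad2 at 5.98%, the last 2 encoding glutamate decarboxylases. The plasma membrane transporter Slc6a11 was at 1.85%, and Abat, which degrades GABA, at 0.104%. The 8 genes of interneuron peptides and calcium-binding proteins had a median of 2.09%. Npy was highest at 9.79%, followed by Cck (4.98%), Pvalb (4.12%) and Sst (2.97%), and Calb1 and Vip had no peak in any library.

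The 14 genes of glutamatergic thalamic neurons had a median of 3.58%, over a wide range. The highest were the transcription factors Gbx2 at 68.4%, Neurog2 at 65.9%, Lhx2 at 45.7% and Lhx9 at 34.1%. The lowest were Ntng1 (0.0643%) and Foxp2 (0.302%), the latter also a transcription factor. Foxp2 nevertheless had a peak in all 11 libraries, and Ntng1 in 4. The share is divided by the length of gene body and flanks, so a low share does not mean that a peak was absent. The Nkx homeobox genes and the ribosomal protein genes were compared with the members within libraries. Summed over its 5 loci, the Dlx/Gsx share had a mean of 68.4% ± 9.81 (SD), against 48.9% ± 7.42 for 14 Nkx homeobox genes and 0.152% ± 0.229 for 35 ribosomal protein genes, which all cells express. The differences were 19.5 ± 1.21 (SE) and 68.2 ± 2.99 percentage points. Each was positive in 11 of 11 libraries, and each had an adjusted p of 9.77e-04 in the exact two-sided sign-flip permutation test, the smallest that 11 libraries allow. The lists were chosen with earlier results known, so the test shows only that libraries agree on these fixed loci. It cannot show that the gene families differ. Single Nkx genes ranged from 2.94% to 94.4%, the members from 45.4% to 88.2%. Of the 35 ribosomal protein genes, 22 had no peak in any list. With gene bodies alone, without flanks, the difference from the Nkx genes was smaller, at 4.62 points (exact test, adjusted p = 0.0156). Nkx2-1 and Nkx2-2 stand in both the Nkx list and the list of GABAergic factors.

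**Figure D4:**
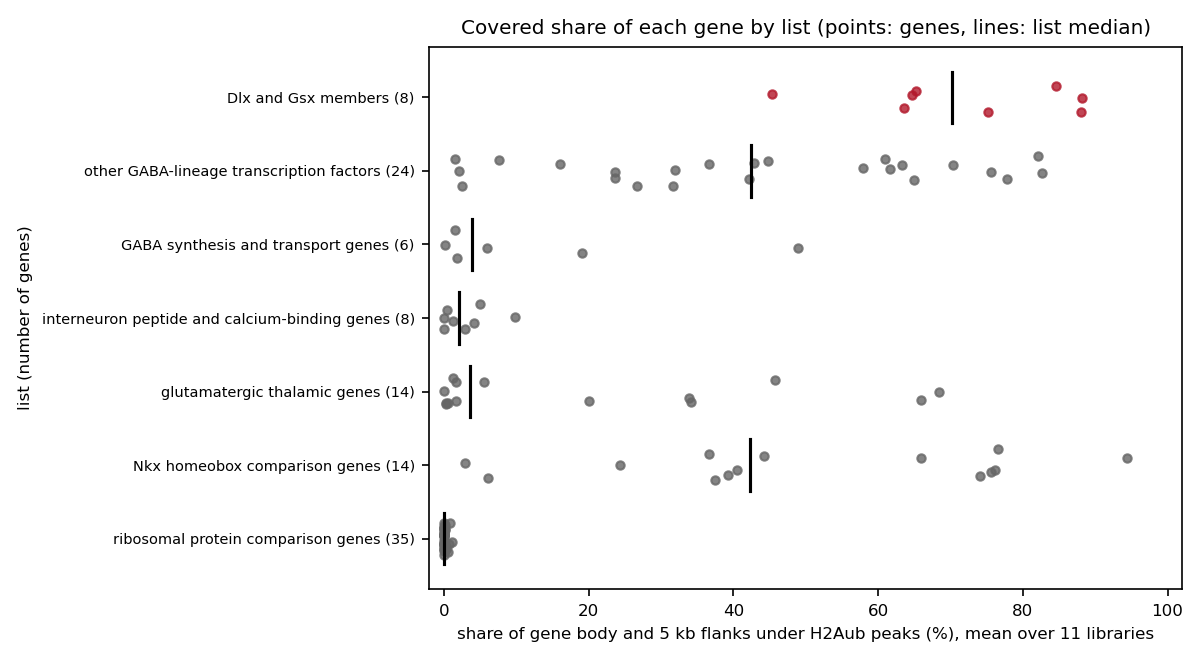
Mean covered share over 11 libraries in percent for each gene (points) of 7 lists, with the median of the list as a line. The 8 Dlx and Gsx genes, in red, lie between 45.4% and 88.2%, whereas ribosomal protein genes lie between 0% and 1.17%.

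Cocaine and saline were then compared over the 5 loci together. In WT mice the covered share was 81.0%, 77.4% and 73.7% after cocaine and 72.6%, 63.0% and 71.9% after saline. Every cocaine library lay above every saline library, by the narrow gap of 73.7% to 72.6%. The means were 77.4% ± 3.66 (SD, n = 3) and 69.2% ± 5.35 (n = 3), a difference of 8.24 ± 3.74 (SE) points (exact two-sided permutation test, p = 0.10, adjusted p = 0.267 over 4 contrasts). That p is the smallest that this test can give with 3 against 3 libraries, so no contrast could pass 0.05 in it. Without WT saline 2, the lowest of the 6, the difference was 5.16 points.

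The lists themselves differed in length. The WT cocaine lists covered 10.4 to 17.2 Mb of the genome and the WT saline lists 5.55 to 11.1 Mb. Over the 11 libraries, the covered share of the loci had a Pearson r of -0.0917 and a Spearman rho of 0.236 with this length. The part of list length in the group differences was not tested, and on the next scale it is the divisor. As a share of the list's own covered length, the 5 loci took 0.555%, 0.609% and 0.839% in WT cocaine and 0.773%, 1.34% and 1.01% in WT saline, with means of 0.668% and 1.04% (exact permutation test, p = 0.20). With the same number of peaks taken from each list, the 7271 with the smallest p values, the covered share was higher after cocaine by 7.65 points.

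**Figure D5:**
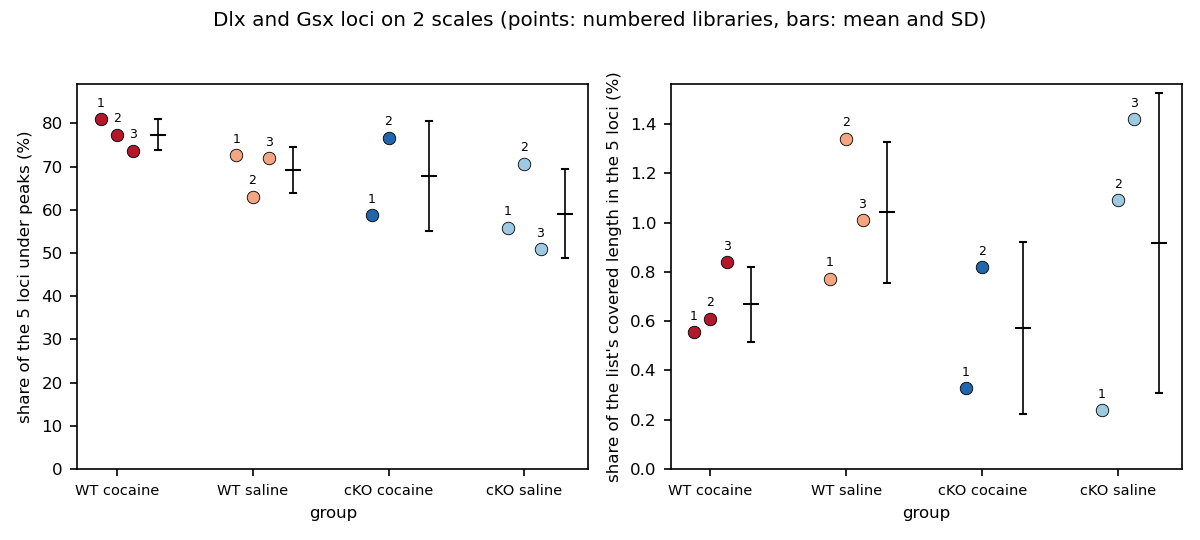
The 5 Dlx and Gsx loci in each numbered library, with group mean and SD as bars: on the left the percentage of the loci under peaks, on the right the percentage of the list's own covered length that lies in the loci. WT cocaine has a mean of 77.4% against 69.2% for WT saline on the left, and 0.668% against 1.04% on the right.

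In cKO mice the share was 58.7% and 76.7% after cocaine and 55.8%, 70.7% and 50.9% after saline, with means of 67.7% ± 12.7 (SD, n = 2) and 59.1% ± 10.3 (n = 3). The groups overlapped, and the difference of 8.61 ± 10.8 (SE) points did not exceed the spread (exact permutation test, p = 0.50, adjusted p = 0.50). It rested on cKO cocaine 2: without that library the difference was -0.364 points, and without cKO cocaine 1 it was 17.6 points. Without both libraries numbered 1 it was 15.9 points, and with equal numbers of peaks per list -4.06 points. The share of the list's own covered length had means of 0.573% after cocaine and 0.915% after saline. The cocaine effect in cKO minus that in WT was 0.371 points (exact permutation over 200 arrangements, p = 0.980), or 7.69 points without both libraries numbered 1, and 8 of 20 alternatives turned its sign.

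Between genotypes, cKO lay lower in the mean under both treatments. The difference was -10.0 ± 6.71 points after saline and -9.67 ± 9.22 points after cocaine (exact permutation tests, p = 0.20 and adjusted p = 0.267 for both), and the groups overlapped in both cases. Without cKO cocaine 1 the difference after cocaine was -0.698 points, and without both libraries numbered 1 the difference after saline was -8.39 points. Leaving out cKO saline 3 alone brought the latter to -5.92 points and leaving out cKO saline 2 to -15.8 points. With equal numbers of peaks per list, the differences were -25.6 points after saline and -37.4 points after cocaine (exact permutation tests, adjusted p = 0.40 for both). That setting removed most peaks from the 2 cKO libraries that stood apart. It was not run without them, so whether these values rest on those libraries was not tested. The contrasts share groups, so they are not independent of each other.

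Single genes gave few separations of groups. Dlx3 and Dlx1 were the 2 of 8 members whose share was higher in every WT cocaine than in every WT saline library, against 8.79% of the coding genes with a peak in any list and 33.3% of those with a peak in all 11 lists, to which all members belong. A count of 2 of 8 is close to the latter. Dlx3 was covered to 65.3%, 67.7% and 50.8% in WT cocaine and to 40.4%, 33.7% and 35.4% in WT saline, the widest separation of means among the members, 61.3% ± 9.12 against 36.5% ± 3.51. Most of the Dlx3 body was under peaks in all 6 libraries, with means of 97.0% after cocaine and 68.1% after saline, and the stretch between Dlx3 and Dlx4 had 28.0% and 13.2%. Dlx1 was at 99.0%, 89.8% and 92.5% in WT cocaine and at 84.6%, 79.2% and 88.9% in WT saline.

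In cKO mice, Dlx3 was the 1 of 8 members that was higher in every cocaine than in every saline library, where the background was 3.81% of coding genes with a peak in any list and 15.6% of those with a peak in all 11. It was covered to 45.2% and 53.5% after cocaine and to 42.3%, 38.2% and 27.4% after saline. Without the libraries numbered 1, a single cocaine library was left, and 6 of 8 members lay higher in it, against a background of 78.1%. Dlx4 was the 1 of 8 members lower in every cKO cocaine than in every WT cocaine library, at 58.7% and 65.7% against 68.7%, 78.7% and 69.7%. The background was 2.68% of coding genes with a peak in any list and 12.8% of those with a peak in all 11, or 42.9% of the latter without the libraries numbered 1, where Dlx4 was still the 1 member. No member was separated between cKO saline and WT saline. The background there was 0.497% higher and 0.560% lower in cKO among coding genes with a peak in any list, and 0.609% and 3.38% among those with a peak in all 11, so that 0 of 8 is close to the background.

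The fold enrichment over input of the widest peak at each locus ranged from 3.72 to 7.08 in the 55 combinations of locus and library. The widest peak reached at least 5 kb in 46 of 55 combinations and at least 10 kb in 18 of 55. Of all 292 peaks at the loci, 68, or 23.3%, were 5 kb or longer, with 5.13% to 46.7% by library, where 0.124% to 1.94% of the peaks of a whole list were. A long peak is also more likely to reach into an interval. The 3 libraries that covered least of the 5 loci had the highest numbers of peaks in them, with 39 in cKO saline 3, 39 in cKO saline 1 and 35 in cKO cocaine 1, whereas WT cocaine 1, which covered most, held 15.

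Among 2793 coding genes outside the loci with a peak in at least 9 lists, the genes whose covered share followed that of the Dlx/Gsx loci most closely over the 11 libraries were Gata3 (Pearson r = 0.97), Hlx (0.968), Hoxc6 (0.968), Hmx3 (0.967) and Hoxb13 (0.964). Gata3 is also on the list of GABAergic factors. The median r over the 2793 genes was 0.167, and 596 of them had an r above 0.5. All genes of a library share its depth and peak calling, and the part of these in the correlations was not tested. The values are a description of these 11 lists.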

How the data were processed

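H2Aub ChIPmentation of mouse thalamus gave 11 peak lists, 1 per library, and 4 libraries of total input chromatin were not analysed here. Per the study's methods, the authors trimmed reads with Cutadapt, aligned them to mm10 with Bowtie2 2.3.4.1, kept reads of high mapping quality with SAMtools and called broad peaks with MACS2 2.1.1.20160309.3 against input. The deposited columns hold peak positions (0-based starts, given here 1-based), a score, a fold enrichment (ratio), and −log10 p and −log10 q values. The stated threshold of the authors was an FDR of 0.05, but the deposited q values go beyond it, and all peaks were used. The study states a minimum depth for all samples, but the lists give no reads per library. Whether Tn5 fragments or unequal depth affected how broad domains were joined or broken was not tested.

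Gene bodies came from RefSeq (GRCm38.p6), and all 8 symbols matched. From the peaks, the bases under a peak were summed per interval with Python 3.11.15, numpy 2.4.6 and pandas 2.3.3, tested on simulated lists. Groups were compared by exact two-sided permutation tests of the summed share, and gene lists by exact sign-flip tests within libraries, with Benjamini-Hochberg adjustment in each family. The same sign-flip test had been planned for neighbouring loci and was run, but because their order was taken from the values tested, only the differences are given. One further list comparison, which was counted in the adjustment, and 1 gene of a lineage list are not reported here. The members and lists were chosen with earlier results of these data known. All 8 members were named, with up to 4 genes of highest and 2 of lowest mean share from each lineage list and the 5 genes most alike by Pearson r. Alternatives changed the q threshold, the number of peaks, the flank, the overlap required, the scale, the libraries kept and the pairing.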

Additional observations from a re-analysis of the deposited data

How the results depend on the processing

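Over all alternatives run, the Dlx/Gsx share stayed above that of the Nkx and ribosomal protein genes with an adjusted p under 0.05 in the sign-flip test (18 alternatives each, differences of 4.62 to 21.6 and 56.0 to 70.9 points). The lists were chosen with earlier results known, so these p values show only agreement among libraries. The ribosomal protein share was at most 0.742% in any library of the main setting, which left that comparison little room to fail. Dlx1-Dlx2 stayed above Dlx5-Dlx6 by 7.0 to 17.7 points. The step from Gsx2 to Dlx1-Dlx2 became -0.915 points with no flank and -6.71 points with only peaks that lay mostly inside, and was 16.9 points with 10 kb flanks and 4.14 points without both cKO libraries numbered 1. Leaving out single libraries gave 1.49 to 3.47 points. The step from Dlx5-Dlx6 to Gsx1 became -22.4 points with no flank and was 9.25 points with equal numbers of peaks, 23.6 points with 10 kb flanks and 9.14 points without the cKO libraries numbered 1, with 4.95 to 8.17 points without single libraries. The step from Gsx1 to Dlx3-Dlx4 became -3.11 points with 10 kb flanks and was 55.8 points with no flank. The WT cocaine contrast kept its sign in covered share. As a share of the list's own covered length it was -0.373 points and the cKO cocaine contrast -0.342 points. The cKO cocaine contrast turned with equal numbers of peaks (-4.06 points) and ranged from -0.364 to 17.6 points without single libraries. The difference of cocaine effects became -11.7 points with equal numbers of peaks and -0.902 points with 10 kb flanks, and ranged from -8.60 to 9.35 points without single libraries. Equal numbers of peaks were not tried without the cKO libraries numbered 1. The causes were not tested. Samples with the same replicate number did not deviate together in every pair, so the numbers were not taken as pairs. Their deviations over coding genes correlated at 0.612 and 0.673 between cKO cocaine and cKO saline. In the other contrasts the same-numbered values ran from -0.457 to 0.373. With a replicate block the differences were 8.24, 4.49, -10.0 and -11.5 points for WT cocaine, cKO cocaine, saline genotype and cocaine genotype (exact p = 0.25, 0.50, 0.50 and 0.50), and neither fit could pass 0.05. Alternatives on counts without the cKO libraries numbered 1 were chosen after seeing the data. Reads per library are unknown, and with 2 or 3 libraries per group no contrast could pass 0.05 in the exact test of 2 groups.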
